A study of Homo sapiens with 4 samples.

Results

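EGFR, the epidermal growth factor receptor, and the genes of its ligands epiregulin (EREG) and epidermal growth factor (EGF) were examined in RWP-1, an established human pancreatic cancer cell line. They are 3 of the 14884 genes that the array annotation names with exactly 1 symbol, and each has 1 probe set, so no choice between probe sets arose. The series holds 4 arrays: 2 of untreated cells (Ctrl) and 2 of cells treated with rGAL1, read here as the recombinant form of galectin-1. Galectin-1 is secreted and binds sugar chains that carry galactose. The sources used here give no dose, time or vehicle. The array rGAL1 2 is placed in the treated group by its title and source name, while its treatment field reads as untreated. It was kept as rGAL1, and the differences of EGFR, EREG and EGF were also computed with it counted as Ctrl. Whether the arrays within a group stem from different cultures is not stated, so the spread between them may be technical. With 2 arrays a group, the precision is limited by their number.

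EGFR is a receptor tyrosine kinase of the ErbB family. Its ligands are made as membrane-bound precursors, and metalloproteases of the ADAM family cut them free. Ligand binding joins receptors in pairs and switches on their kinases, which signal through RAS and the ERK kinases and through PI3K and AKT. Feedback inhibitors, many of them ERK targets, then dampen the receptor. EGF and HBEGF are ligands of high affinity, whereas epiregulin binds EGFR weakly and can act through ERBB4 as well. In pancreatic ductal cancer the pathway is known for driving growth, and EGFR is a drug target there.

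The 3 genes were chosen by their measured levels and their rGAL1 minus Ctrl differences on these 4 arrays. Their values are therefore given as a description, without a test. Across all 53617 probe sets, 0 (0%) passed an adjusted p under 0.05 for rGAL1 against Ctrl (limma, Benjamini-Hochberg), and 2807 (5.24%) had an unadjusted p under 0.05. The smallest adjusted p was 0.919. All levels are deposited log2 values, and every difference is the rGAL1 mean less the Ctrl mean, in log2 units. Levels of different probe sets are not set against each other, since probe response differs. A level of 4.70, the median of all probe set means, served as the dim level, which is a reference and not a detection call.

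The RWP-1 arrays measured epithelial markers of a ductal line. The keratin KRT18 had 2 probe sets, the brighter at 12.41 and the dimmer at 9.08 in Ctrl. The brighter stands for KRT18 in the ductal means given below. All 7 measured of 11 ductal markers had means above the dim level, as had 10684 of all 14884 named genes. So had 3 of 4 measured acinar, 2 of 3 endocrine, 2 of 3 leukocyte and 1 of 3 endothelial markers. The dim level therefore does not single out the ductal list. The mean of the 7 ductal markers was 8.97 and 9.01 on the Ctrl arrays and 8.87 and 8.93 on the rGAL1 arrays. In rGAL1, 5 of the 7 had lower and 2 higher means, where 51.7% of all named genes were higher. The groups did not overlap in 4 of the lower and 1 of the higher. Of all named genes, 17% were lower and 20.2% higher without overlap. At an unadjusted p under 0.05 there were 0 of the 7 (limma). The keratin KRT7 differed by -0.38 (SE 0.17) and EPCAM, an adhesion molecule of epithelial cells, by 0.089 (SE 0.097). Both measured fibroblast markers, DCN and LUM, lay below the dim level on every array, with Ctrl means between 2.91 and 3.37. The mean of 3 measured leukocyte markers was 5.71 and 5.83 on the Ctrl arrays and 5.88 and 5.91 on the rGAL1 arrays. In that list CD68, a lysosomal protein, differed by 0.39 (SE 0.12). The mean of 4 acinar markers was 4.86 and 4.74 on the Ctrl arrays and 4.86 and 5.01 on the rGAL1 arrays, with the chymotrypsinogen CTRB1 at 0.61 (SE 0.18). CD68 and CTRB1 each had an unadjusted p of 0.0222 and an adjusted p of 0.919 (limma). They were 1 of 3 leukocyte and 1 of 4 acinar markers at an unadjusted p under 0.05, against 2.98% of all named genes. No measured fibroblast, endothelial or endocrine marker was under it. The mean of 3 endothelial markers was 4.56 and 4.45 on the Ctrl arrays and 4.39 and 4.54 on the rGAL1 arrays, and that of 3 endocrine markers was 4.76 and 4.64 against 4.68 and 4.50. The part of these markers in the differences of EGFR and its ligands was not tested.

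The stretches in front of the 3 genes are shown to set the first start of the receptor gene beside those of the 2 ligands. Each line gives the 100 bases before the transcription start that RefSeq lists on GRCh38.p14, read 5′ to 3′ on the plus strand, and for EGFR the first of 2 listed starts. Capitals mark matches on either strand to the TATA box letters TATAAA or to the GC box letters GGGCGG.
EGFR (chr7:55018917-55019016): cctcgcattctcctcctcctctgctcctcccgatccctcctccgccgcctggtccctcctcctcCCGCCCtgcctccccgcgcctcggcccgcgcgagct
EREG (chr4:74365045-74365144): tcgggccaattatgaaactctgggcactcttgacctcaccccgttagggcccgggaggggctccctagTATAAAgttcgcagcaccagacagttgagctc
EGF (chr4:109912783-109912882): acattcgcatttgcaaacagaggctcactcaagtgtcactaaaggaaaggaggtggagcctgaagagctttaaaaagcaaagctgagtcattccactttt

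The window of EGFR had a GC content of 75%, that of EREG 57% and that of EGF 43%, where the median over 35116 listed starts was 60%. EREG had TATAAA with its first base at position -32, counted back from the start; 4.99% of all windows of this length hold these letters. EGFR had GGGCGG on the minus strand from position -36, and 31.3% of all windows hold it. The EGF window held neither. The second listed EGFR start, which is not printed, goes the other way: its window had a GC content of 36%, TATAAA from position -36 and no GGGCGG. None of these windows held both motifs. The arrays measured transcript levels and not binding at these stretches.

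The receptor gene itself had nearly the same level in both groups. EGFR measured 9.10 and 9.24 on the Ctrl arrays and 9.17 and 9.26 on the rGAL1 arrays. The ranges of the groups overlapped, and the rGAL1 1 array lay between the 2 Ctrl arrays. The Ctrl mean was 9.17 ± 0.096 and the rGAL1 mean 9.22 ± 0.063 (log2, SD, n = 2). They differed by 0.045 (SE 0.11), or 1.03-fold. Within each group the array numbered 2 lay above the array numbered 1, by 0.14 in Ctrl and by 0.09 in rGAL1, so both gaps between arrays of a group exceeded the difference between the groups. The direction rested on single arrays. The difference was -0.023 without Ctrl 1, 5.1e-05 without rGAL1 2, and -0.03 with rGAL1 2 counted as Ctrl.

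EREG had the highest difference among the 5 measured EGFR ligands, and it was chosen with this difference known. It measured 5.32 and 5.20 on the Ctrl arrays and 5.83 and 5.51 on the rGAL1 arrays. Both rGAL1 arrays lay above both Ctrl arrays, with rGAL1 1 well above rGAL1 2. Both arrays above both Ctrl arrays was also found in 20.2% of all named genes. The Ctrl mean was 5.26 ± 0.087 and the rGAL1 mean 5.67 ± 0.23 (log2, SD, n = 2), which differed by 0.41 (SE 0.15), or 1.33-fold. The 2 rGAL1 arrays differed from each other by 0.32, which is close to the gap of 0.31 between the arrays numbered 2. The gap between the arrays numbered 1 was 0.52. Without rGAL1 1 the difference was 0.25, and with rGAL1 2 counted as Ctrl it was 0.49. In the order of differences over the 14884 named genes, EREG ranked 90th from the highest.

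EGF, the ligand that names the receptor, had the lowest difference of the 5 ligands and a dim signal. It too was chosen with its difference known. It measured 4.50 and 4.51 on the Ctrl arrays and 4.28 and 4.15 on the rGAL1 arrays. Each rGAL1 array lay below each Ctrl array, as in 17% of all named genes, and all 4 values lay below the dim level. The Ctrl mean was 4.50 ± 0.0017 and the rGAL1 mean 4.21 ± 0.091 (log2, SD, n = 2). The difference was -0.29 (SE 0.11), or 1.22-fold lower. The 2 Ctrl arrays differed by only 0.0024, while the rGAL1 arrays stood 0.13 apart. The gap was -0.23 for the pair numbered 1 and -0.36 for the pair numbered 2. With rGAL1 2 counted as Ctrl, the difference was -0.11. EGF ranked 378th from the lowest among the named genes. RMA summaries of dim probe sets can compress differences, and part of such a signal can be background. Neither was measured here.

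**Figure D1:**
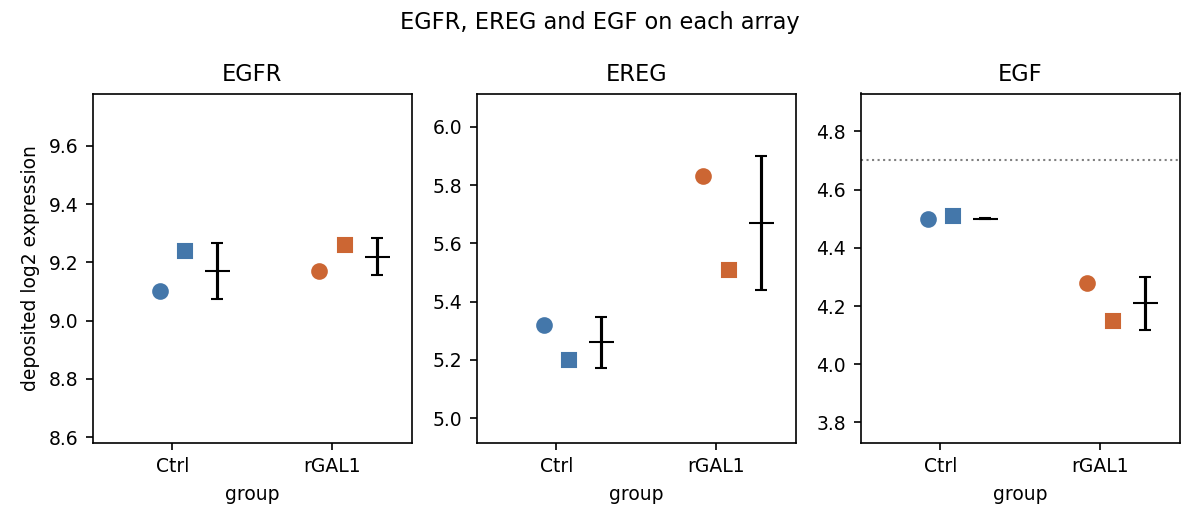
Deposited log2 expression (y axis, each panel spanning the same 1.2 units) of EGFR, EREG and EGF in the Ctrl (blue) and rGAL1 (orange) groups; circles are the arrays numbered 1, squares those numbered 2, black bars the mean ± SD (n = 2), and the dotted line the dim level of 4.70. The EGFR groups overlap, both rGAL1 arrays lie above both Ctrl arrays for EREG, and both lie below for EGF.

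The 3 other measured EGFR ligands had differences closer to 0 than those of EREG and EGF. Since EREG and EGF were chosen with their differences known, this order can follow from the choice. BTC (betacellulin), a ligand of EGFR and ERBB4, measured 5.29 and 5.30 on the Ctrl arrays and 5.43 and 5.44 on the rGAL1 arrays, a difference of 0.14 (SE 0.097) and the same 0.14 between each same-numbered pair. HBEGF, the heparin-binding ligand, measured 6.22 and 6.31 in Ctrl and 6.26 and 6.05 in rGAL1. Its groups overlapped, with a difference of -0.11 (SE 0.12) that was -0.0015 without rGAL1 2. EPGN (epigen), with a mean below the dim level, measured 3.16 and 3.40 in Ctrl, and its rGAL1 mean was 3.15 ± 0.21 (log2, SD, n = 2), with overlapping groups. Its difference was -0.13 (SE 0.16), and 0.012 without rGAL1 2. With rGAL1 2 counted as Ctrl, HBEGF was at 0.071 and EPGN at 0.10. TGFA and AREG are not analysed here.

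ERBB3, a receptor with a weak kinase that signals through its partners, measured 6.49 and 6.50 in Ctrl and 6.64 and 6.47 in rGAL1. The difference was 0.064 (SE 0.11), and -0.023 without rGAL1 1. ERBB4, which epiregulin and the neuregulins can engage, was dim at 4.44 and 4.37 in Ctrl and 4.24 and 4.20 in rGAL1. Its rGAL1 arrays lay below its Ctrl arrays, with a difference of -0.18 (SE 0.10). ERBB2 is not analysed here. The neuregulins are ligands of ERBB3 and ERBB4 rather than of EGFR. Lower means, found in 7191 of all 14884 named genes, occurred in 4 of 4 neuregulins, with a median difference of -0.16. NRG3, dim at 4.43 and 4.60 in Ctrl and 4.31 and 4.09 in rGAL1, had the largest of these differences at -0.31 (SE 0.13). It was -0.20 without rGAL1 2 and -0.065 with that array counted as Ctrl. NRG1 differed by -0.17 (SE 0.10). NRG2 had 2 probe sets of opposite sign, the brighter at -0.15 and the dimmer at 0.08. NRG4 differed by -0.073, and by 0.20 without Ctrl 1 and 0.059 without rGAL1 2. With rGAL1 2 counted as Ctrl, NRG4 was at 0.13 and the median of the 4 neuregulins at -0.032. None of these receptors and ligands passed the test (limma, lowest adjusted p = 0.919). Of the 9 genes besides the members, 0 had an unadjusted p under 0.05.

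**Figure D2:**
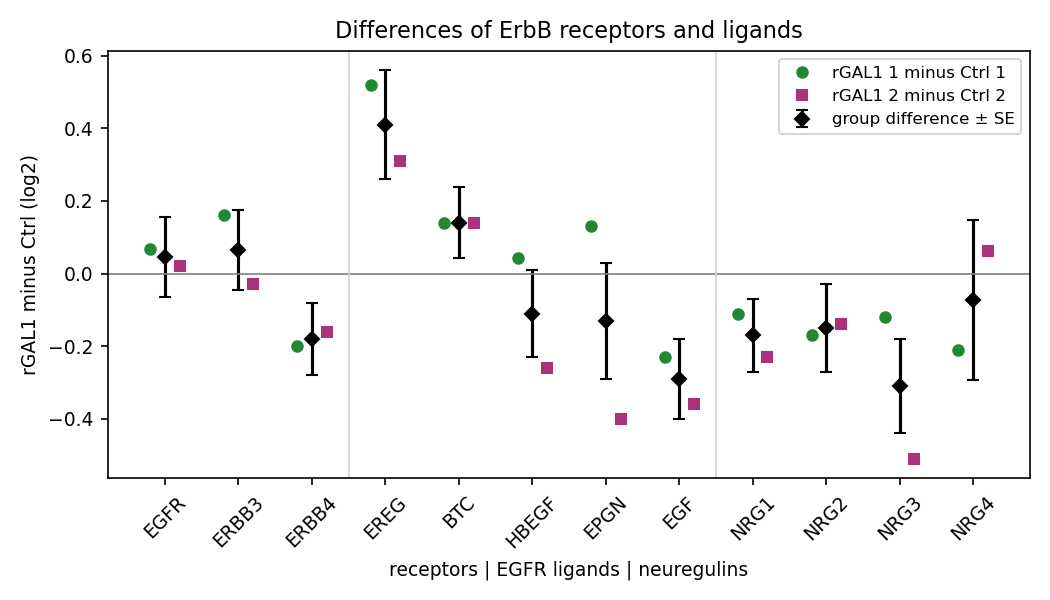
Difference rGAL1 minus Ctrl (y axis, log2 units) for the measured ErbB receptors, EGFR ligands and neuregulins (x axis); black diamonds with bars are the group difference ± SE from the limma fit, green circles the arrays numbered 1 and purple squares those numbered 2. EREG is highest at 0.41, EGFR is at 0.045, and EGF (-0.29) and NRG3 (-0.31) are lowest. EGFR, EREG and EGF were chosen with their differences known.

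Beyond the members, 61 of the 88 other genes on 11 lists of the pathway were measured. Of these, 28 had higher and 33 lower means in rGAL1, where 51.7% of all named genes were higher, with a median difference of -0.013 against 0.0056 over all named genes. After adjustment 0 of the 61 passed in either direction (limma). At an unadjusted p under 0.05 there was 1 higher and 0 lower, or 1.64%, against 2.98% of all named genes. In 30 of the 61 (49.2%) the groups did not overlap, 16 higher and 14 lower. That was so in 37.2% of all named genes and in 39.1% of those above the dim level.

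The gene at an unadjusted p under 0.05 was LRIG3, a leucine-rich transmembrane protein of the family of the ErbB inhibitor LRIG1. LRIG3 measured 5.84 and 5.89 on the Ctrl arrays and 6.20 and 6.13 on the rGAL1 arrays, a difference of 0.30 (SE 0.10; limma, unadjusted p = 0.0338 and adjusted p = 0.919). Its rGAL1 arrays lay above both Ctrl arrays, and the difference stayed between 0.26 and 0.33 when any 1 array was left out. ERRFI1 (MIG6), which binds the EGFR kinase and blocks it, measured 8.89 and 9.06 in Ctrl and 9.22 and 9.24 in rGAL1. The difference was 0.25 (SE 0.11; limma, adjusted p = 0.919), and 0.16 without Ctrl 1. LRIG1 itself lay near 0, at -0.027, and at 0.091 without Ctrl 2. In all, 3 of the 11 measured inhibitors and turnover genes had higher and 8 had lower means, with a median of -0.027.

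Genes on the list of ERK targets went in both directions. Of 11 measured target genes, 7 had higher and 4 lower means, with a median difference of 0.049 that was -0.01 without rGAL1 2. The median was -0.022 with rGAL1 2 counted as Ctrl. In 8 of the 11 (72.7%) the groups did not overlap, 5 higher and 3 lower, against 37.2% of all named genes. ETV5, a transcription factor of the ETS family, measured 5.63 and 5.54 in Ctrl and 5.82 and 5.85 in rGAL1, a difference of 0.25 (SE 0.10). FOSL1, an AP-1 subunit, measured 8.98 and 8.84 in Ctrl and 9.15 and 9.09 in rGAL1, a difference of 0.21 (SE 0.11). For both genes the rGAL1 arrays lay above the Ctrl arrays, and neither passed (limma, adjusted p = 0.919 for each). Of 6 measured feedback inhibitors of ERK signalling, 5 had higher means and 1, DUSP6, a lower mean. Their median was 0.031, and -0.018 without Ctrl 2. In 4 of the 6 (66.7%) the groups did not overlap, 3 higher and 1 lower. A dimmer probe set of DUSP5 gave -0.26, against 0.049 for the brighter. SPRY2, which restrains RAS signalling, differed by 0.21 (SE 0.11), or 0.13 without Ctrl 1. DUSP6, a phosphatase of ERK, differed by -0.096 (SE 0.10), or -0.059 without Ctrl 2.

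The machinery between receptor and nucleus, and the proteases that release ligands, showed small differences in both directions. Of 6 genes of ligand processing, 2 had higher and 4 lower means. ADAM17, the protease that releases epiregulin and several other ligands, measured 7.99 and 8.06 in Ctrl and 8.19 and 8.06 in rGAL1, a difference of 0.10 (SE 0.11) that was 0.038 without rGAL1 1. FRMD8, which stabilises the ADAM17 complex, differed by -0.23 (SE 0.17), and by -0.026 without rGAL1 1. Among 6 adaptor and RAS genes the median was 0.027, with HRAS at 0.13 (SE 0.11), or 0.043 without Ctrl 1, and the adaptor SHC1 at 0.043 (SE 0.10), or 0.00029 without rGAL1 1. Among 5 genes of the RAF to ERK cascade the median was -0.11. MAP2K2, a kinase that activates ERK, measured 5.95 and 6.02 in Ctrl and 5.49 and 6.03 in rGAL1, so its difference of -0.23 (SE 0.20) came from 1 array and was 0.042 without rGAL1 1. The scaffold KSR1 differed by -0.16 (SE 0.11), and by -0.095 without Ctrl 2. Of the PI3K and AKT list only 3 of 9 genes were measured, with AKT1 at -0.14 and AKT2 at -0.11. AKT2 was at -0.0088 without rGAL1 2 and at 0.064 with that array counted as Ctrl. A dimmer probe set of AKT1 gave 0.15. Among 4 other effectors STAT5A, a transcription factor that ErbB receptors can activate, differed by 0.14 (SE 0.11), or 0.069 without Ctrl 1, and STAT5B by 0.053 (SE 0.11), or -0.019 without Ctrl 2.

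**Figure D3:**
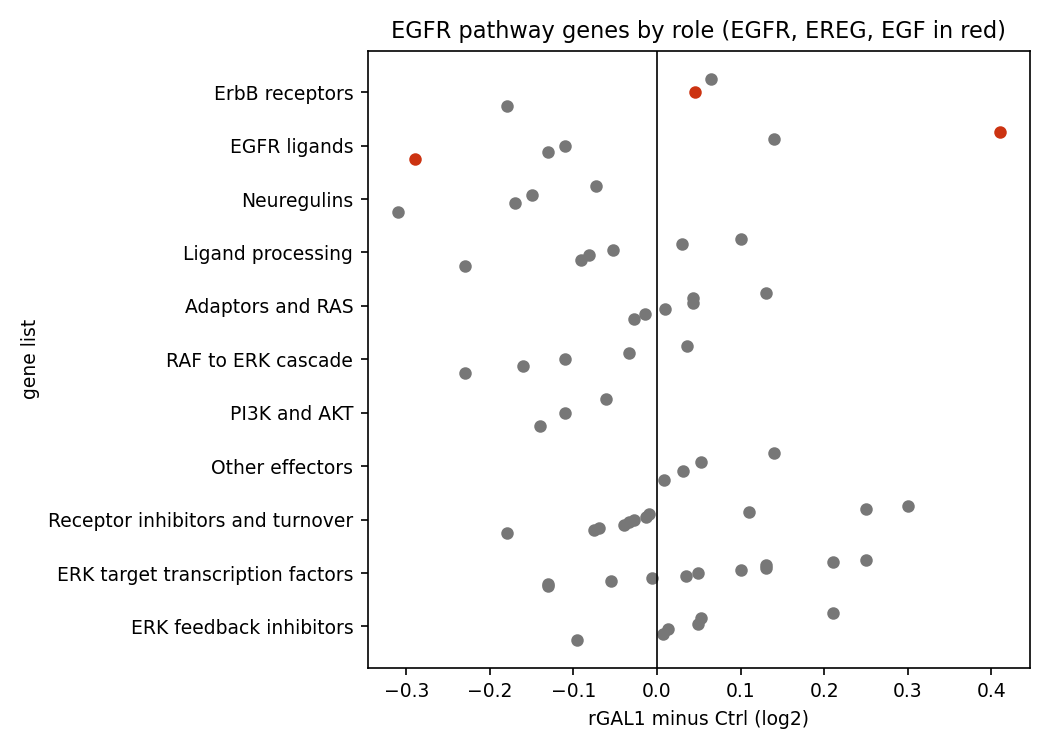
Difference rGAL1 minus Ctrl (x axis, log2 units) of each measured gene on the 11 pathway lists (y axis), 1 point per gene from its brightest probe set; EGFR, EREG and EGF are red and the other 61 genes grey. EREG at 0.41 lies beyond the highest other gene, LRIG3 at 0.30, and EGF at -0.29 lies near NRG3, the lowest at -0.31. The genes in red were chosen with their differences known.

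The genes whose 4 values were most like those of each member were sought among the 10684 named genes with a mean above the dim level. The measure was the root mean square difference of the 4 array values, each gene centred on its own mean, and it describes these 4 arrays alone. Genes were picked for this likeness, so differences and array orders like those of the member follow from the search. Joint regulation was not tested. For EREG the nearest were the pseudogene ULK4P3 (root mean square difference 0.036 log2 units), the glutathione transferase GSTA4 (0.036) and the noncoding RNA WAKMAR2 (0.044). GSTA4 measured 5.89 and 5.77 in Ctrl and 6.32 and 6.05 in rGAL1, with rGAL1 1 the highest array, as for EREG. WAKMAR2 has a second, dimmer probe set at 0.15, against 0.49 for the brighter. For EGF they were CST4, a cystatin (0.0099), GAGE12H (0.012) and VEGFA, the vascular endothelial growth factor (0.013). VEGFA measured 7.25 and 7.26 in Ctrl and 7.01 and 6.91 in rGAL1, a difference of -0.29 as for EGF. For EGFR they were TRIM41 (0.0052), TMEM160 (0.0056) and GPANK1 (0.0058), whose groups also overlapped, with differences of 0.046, 0.053 and 0.047.

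**Figure D4:**
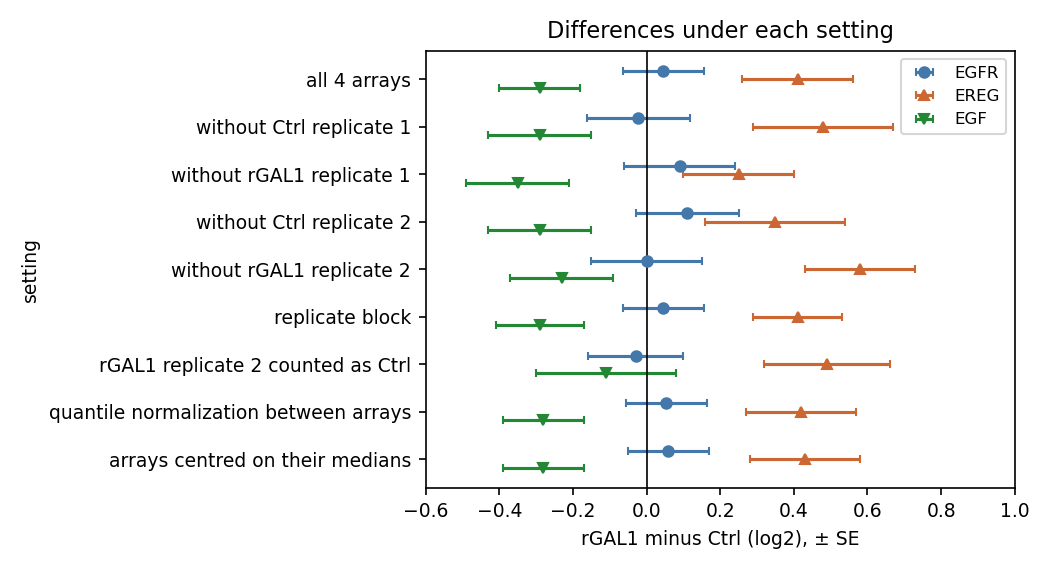
Difference rGAL1 minus Ctrl (x axis, log2 units, ± SE from the limma fit) of EGFR (circles), EREG (upward triangles) and EGF (downward triangles) with all 4 arrays and under each alternative setting (y axis). EREG stays between 0.25 and 0.58 and EGF between -0.35 and -0.11, while EGFR lies between -0.03 and 0.11.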

How the data were processed

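RNA of 4 RWP-1 samples, 100 ng of total RNA each, was labelled with biotin for single-channel whole-transcript arrays, per the labels' protocols. The deposited values are log2 expression per probe set. The submitters' processing notes name RMA (background correction, normalization across arrays, summary over each set's probes) and limma, without versions or settings. The medians of the 4 arrays lay between 4.69 and 4.72. No sample column was left unused.

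Groups and replicate numbers came from the titles. Of 53617 probe sets, 16098 carried 1 gene symbol, for 14884 genes; the brightest probe set represented each of the 779 genes with several. All probe sets were fitted with limma 3.58.1 in R 4.3.3 (lmFit, eBayes, no block), with 2 residual and 2.75 prior degrees of freedom, p-values that were two-sided and adjusted by Benjamini-Hochberg; the fit was tested on simulated data. The titles number the arrays but do not say whether same-numbered arrays were paired. Same-numbered arrays did not deviate together (r = -0.0476 over all probe sets). This correlation cannot decide the pairing, so the main fit had no block and an alternative added it.

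The members and lists were chosen with earlier results of these data known. Named were all measured EGFR ligands and ErbB receptors and, per other list, the 2 genes with the largest differences and any at an unadjusted p under 0.05. KRT18, KRT7, EPCAM, CD68, CTRB1, LRIG1, NRG2 and NRG4 were named after their values were seen. The alternatives left out each array, added a replicate block, counted rGAL1 2 as Ctrl, changed normalization, filter or variance prior. A promoter window was read from RefSeq starts on GRCh38.p14.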

Additional observations from a re-analysis of the deposited data

How the results depend on the processing

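No probe set passed an adjusted p under 0.05 in limma with all 4 arrays (0, with 2807 at an unadjusted p under 0.05) or under any of the 11 alternatives, where the fits without 1 array gave 0 to 0 and the replicate block gave 0. Under the 11 alternatives the count at an unadjusted p under 0.05 ran from 1006, where fewer probe sets were tested, to 3444. With 1 array left out, the difference (rGAL1 minus Ctrl, log2) ranged from 0.25 to 0.58 for EREG, from -0.35 to -0.23 for EGF and from -0.023 to 0.11 for EGFR; these fits leave 1 group with a single array that is assumed to vary like the other. With the replicate block the differences were by construction the same, 0.41, -0.29 and 0.045. With rGAL1 2 counted as Ctrl, EGF was at -0.11, a move larger than its spread between arrays. Quantile normalization and centring on the median gave 0.42 and 0.43 for EREG, -0.28 and -0.28 for EGF, and 0.053 and 0.059 for EGFR. Averaging several probe sets of a gene gave no value, because each of the 3 genes has 1 probe set. All values of EGF lay below the dim level, and no measure of signal over background was computed.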
